A study of Homo sapiens with 6 samples.

Results

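The 50 genes described here code for parts of the machinery that moves and parts the chromosomes in mitosis. They were chosen by name, from the functions of their products, but with earlier results of these data known. They are 50 of the 60671 genes in the expression table. By role they comprise 12 mitotic kinesins, 10 spindle proteins, 4 cytokinesis proteins, 8 inner centromere proteins, 9 outer kinetochore proteins, the 2 shugoshins and 5 condensin subunits. All 50 were found, 49 by the name in the table and KIFC1 by its Ensembl identifier, ENSG00000237649, and all 50 were expressed highly enough to be tested.

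The cells were U87, an established human glioblastoma line. In the rutaecarpine group, U87 cells were exposed for 48 h to 100 μM rutaecarpine, an alkaloid that binds the aryl hydrocarbon receptor (AhR), in serum-free medium with 0.1% DMSO. The control group received 0.1% DMSO in serum-free medium for the same 48 h. Each group held 3 RNA-seq libraries, all from 1 cell line, and the labels do not say whether the replicates were separate cultures, so p-values measure the spread between these libraries, which may be technical. Levels are in TPM, an expression unit that corrects for transcript length and library size, so that levels of different genes can be set side by side.

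During mitosis, microtubules built from tubulin form a bipolar spindle that kinesin motors slide, cross-link and shorten. Each chromosome is folded by condensin and carries a centromere, marked by the histone variant CENP-A. A layer of inner centromere proteins sits on that chromatin, and the outer kinetochore, with the Ndc80 complex at its core, grips the microtubule ends. Shugoshins protect the cohesin that holds sister chromatids at the centromere until anaphase. Many of these genes are transcribed mainly in G2 and M phase, so in a bulk library a smaller share of dividing cells and less of each transcript per dividing cell cannot be told apart.

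Control replicate 3 stood apart from the other 5 libraries. It had a median log2(TPM + 1) of 3.56 over tested genes against 3.81 to 4.00 in the others, and it detected 13758 genes at a TPM of at least 1 against 14105 to 14475. It was the lowest control library for 40 of the 50 genes. The number of genes called in each role and list is therefore also given without it. Rutaecarpine replicate 2 came next in both measures and was the lowest treated library for 29 of the 50 genes. Its deviations from the group mean correlated with those of control replicate 3 (r 0.387). Leaving out control replicate 3 alone keeps that treated library. Sequencing depth is unknown, because TPM keeps no read totals. The cells carried the mesenchymal transcripts of U87, with mean control TPM of 7498 for VIM, 6025 for FN1 and 655 for CD44. VIM and FN1 were themselves called lower after rutaecarpine (log2 fold changes of -0.63 and -0.89), as was NES (-0.53). GFAP stood at only 3.98 and S100B, another glial marker, at 0.107. Of 11 markers of other cell types, 9 did not reach the level needed for testing, among them PTPRC, PECAM1 and EPCAM, and the exceptions were CD68 and SNAP25. CD68 was called lower (473 to 342 TPM on average, limma adjusted p 0.0178) and SNAP25 was at 65.1% of control without being called, the direction of the 50 genes. Their part in the results below was not tested.

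Rutaecarpine-treated cells held less mRNA of the mitotic machinery. All 50 genes had a lower mean level in the rutaecarpine group, and 29 of them fell, with adjusted p-values no higher than 0.05 (limma on log2(TPM + 1), Benjamini-Hochberg adjustment over 14377 genes), where 4.68% of all tested genes were called lower. None of the 50 was called higher, a direction in which 4.60% of tested genes were called, and 40 of the 50 had an unadjusted p under 0.05. The count depended on the libraries kept: it was 18 without rutaecarpine replicate 1, 19 without control replicate 1 or rutaecarpine replicate 3, 20 without control replicate 2, 21 without rutaecarpine replicate 2 and 49 without control replicate 3. The median log2 fold change of the 50 was -0.82, with a range from -1.62 for SPC24 to -0.10 for SMC2, against a median of 0.08 over all tested genes.

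Summed over the 50 genes, the level was 2024, 2013 and 1642 TPM in the 3 control libraries and 1015, 986.9 and 1013 TPM in the 3 rutaecarpine libraries. The groups did not overlap, and the rutaecarpine libraries lay much closer to each other (1005 ± 15.6 TPM, SD, n = 3) than the control libraries did (1893 ± 217 TPM, SD, n = 3). The sum after rutaecarpine was 53.1% of control, or 49.8% of the mean of controls 1 and 2. Gene by gene, all 3 rutaecarpine libraries were below all 3 control libraries for 39 of the 50, where 14.0% of all tested genes showed such a separation. With 3 libraries against 3, an exact permutation test of a single gene cannot go below 0.1.

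A stricter call, the differentially expressed gene (DEG) with an absolute log2 fold change above 1 as well, was met by 12 of the 50 and by 1.50% of all tested genes in the lower direction. These were the kinesins KIF15, KIF18B, KIF20A and KIFC1, the spindle proteins TPX2, NUSAP1 and TACC3, the cytokinesis scaffold ANLN, the inner centromere proteins CENPM and CENPU, and the Ndc80 complex subunits SPC24 and SPC25. ANLN also stands on a list of migration-related genes that the study drew from these same libraries, so its place there is not separate evidence. Of the 29 called genes, 18 were called in all 6 fits that left out 1 library, and 11 lost the call in at least 1 of them. These 11 were KIF4A, NUSAP1, DLGAP5, RACGAP1, ANLN, CENPH, CENPW, NDC80, SPC25, SKA1 and NCAPG. Without control replicate 3 the 49 called genes (10.3% of tested genes were called lower) were all but CENPN, and 25 were DEGs (2.30% of tested genes). The median log2 fold change was then -1.0, against -0.01 over all tested genes.

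**Figure D1:**
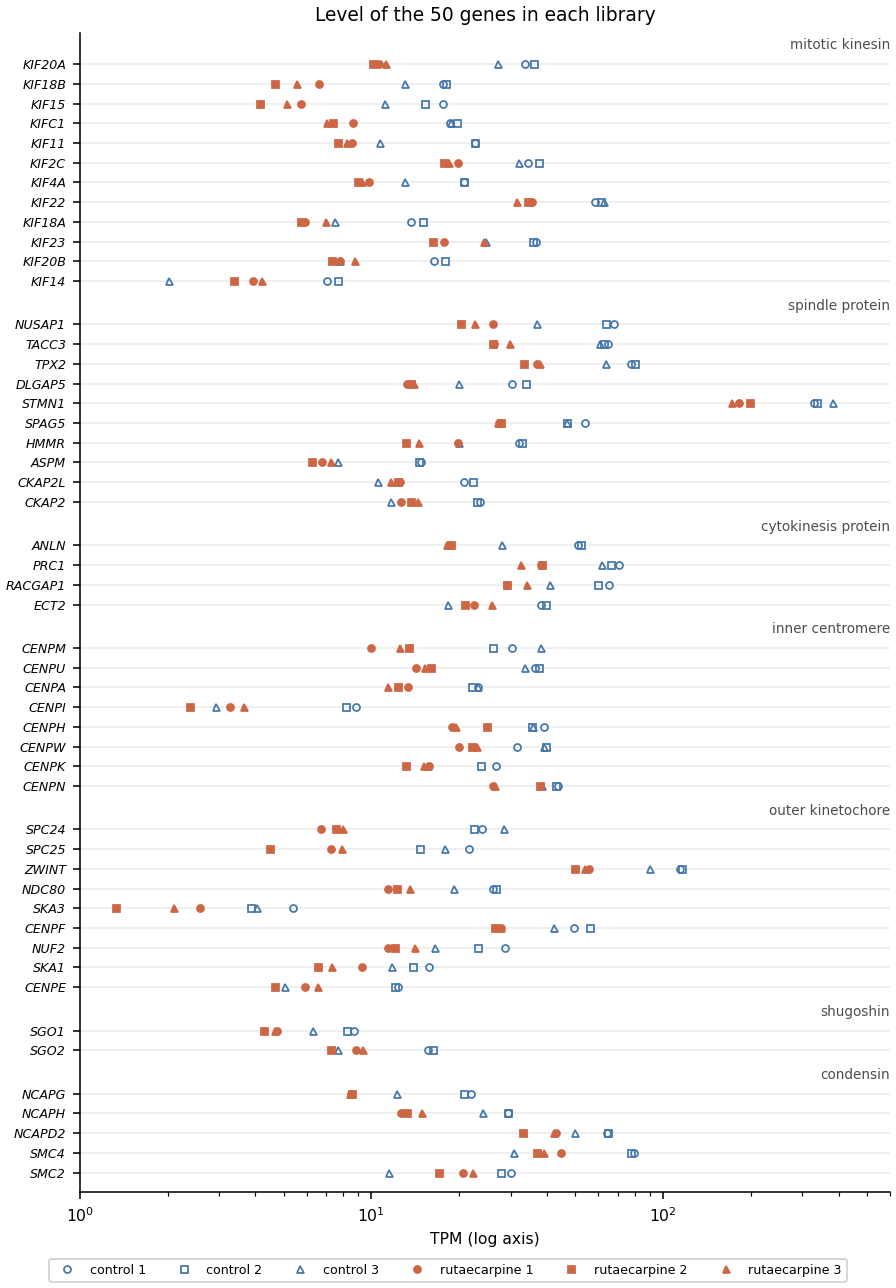
TPM of each of the 50 genes (log axis) in the 3 control libraries (open symbols) and the 3 rutaecarpine libraries (filled symbols), by role. The filled symbols lie left of the open circles and squares (controls 1 and 2) in all 50 rows, while the open triangle (control 3) lies among or left of the filled symbols in 11 rows.

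The promoters of these genes share sequence features that the choice of genes did not use. Genes of G2 and M phase are often controlled through a cell cycle genes homology region (CHR), which MuvB complexes bind, together with CCAAT boxes, which NF-Y binds. RefSeq promoters (GRCh38.p14, from 250 bases before to 50 after each transcription start) were given for 46 of the 50 genes, not for CENPH, CENPM, RACGAP1 and TPX2. A CHR, searched as TTTGAA or TTCGAA on both strands, was present for 34 of 46 genes (73.9%), against 17.5% of 15843 protein-coding genes and 15.8% of the 9719 of those that were tested for expression. A CCAAT box, searched as CCAAT on both strands, was present for 31 of 46 (67.4%, against 42.1% and 43.6%). Both were present for 24 of 46 (52.2%, against 7.28% and 6.71%).

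Most CHR matches were close to the start of transcription used. Of 44 distinct matches in the windows of these genes, 35 had their first base between positions -60 and 50, and these belonged to 31 genes. Base 1 is the first transcribed base. The range was not fixed beforehand, and the share of matches within it was not computed for other genes. The windows below show the arrangement for genes of 5 roles, as the 100 bases before the start on the strand of the gene, 5′ to 3′, with CHR and CCAAT matches in capitals (TTCAAA and ATTGG are the same motifs on the other strand).
KIF4A, chrX:70290004-70290103, plus strand: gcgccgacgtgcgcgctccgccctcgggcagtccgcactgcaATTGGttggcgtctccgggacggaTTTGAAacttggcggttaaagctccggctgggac
KIF11, chr10:92593030-92593129, plus strand: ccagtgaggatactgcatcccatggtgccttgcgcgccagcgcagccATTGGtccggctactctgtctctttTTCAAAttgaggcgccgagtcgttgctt
KIF22, chr16:29790651-29790750, plus strand: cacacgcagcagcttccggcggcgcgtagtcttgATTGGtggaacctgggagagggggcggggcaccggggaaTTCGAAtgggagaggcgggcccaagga
HMMR, chr5:163460532-163460631, plus strand: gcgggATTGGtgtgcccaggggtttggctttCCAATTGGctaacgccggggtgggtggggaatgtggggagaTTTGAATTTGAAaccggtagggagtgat
PRC1, chr15:90994536-90994635, minus strand: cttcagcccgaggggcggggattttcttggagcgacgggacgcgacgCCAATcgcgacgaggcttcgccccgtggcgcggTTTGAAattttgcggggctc
ANLN, chr7:36389762-36389861, plus strand: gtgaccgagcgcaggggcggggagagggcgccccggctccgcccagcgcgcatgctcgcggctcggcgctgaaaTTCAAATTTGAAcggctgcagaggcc
ZWINT, chr10:56361260-56361359, minus strand: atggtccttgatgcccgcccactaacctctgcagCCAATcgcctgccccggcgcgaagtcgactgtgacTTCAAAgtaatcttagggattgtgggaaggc
NCAPG, chr4:17810879-17810978, plus strand: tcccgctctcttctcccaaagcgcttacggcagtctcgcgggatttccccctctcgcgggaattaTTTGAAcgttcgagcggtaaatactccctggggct
In KIF4A, KIF11, KIF22 and PRC1 a CCAAT box lies upstream of a single CHR, with the CCAAT match starting at -58, -53, -66 and -53 and the CHR at -34, -28, -27 and -20. HMMR holds a pair of adjoining CHR copies downstream of several CCAAT boxes, ANLN a pair of CHR copies on opposite strands, and NCAPG a CHR with no CCAAT match in its window.

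Among the DEGs with a window, KIF20A, SPC24, TACC3 and CENPU held no match to TTTGAA or TTCGAA. Other forms of the CHR were not searched, and the lack of a match says nothing of the factors that act on these genes. KIF15, KIF18B, KIFC1, NUSAP1, SPC25 and ANLN held a CHR. The next 4 windows, of KIF20A, SPC24, TACC3 and KIF15, are shown because these genes had some of the largest fold changes of their roles.
KIF20A, chr5:138179012-138179111, plus strand: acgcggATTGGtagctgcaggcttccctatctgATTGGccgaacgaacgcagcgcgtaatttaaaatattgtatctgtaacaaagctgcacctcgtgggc
SPC24, chr19:11155783-11155882, minus strand: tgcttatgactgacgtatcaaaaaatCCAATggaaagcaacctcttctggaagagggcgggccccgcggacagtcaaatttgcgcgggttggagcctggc
TACC3, chr4:1720531-1720630, plus strand: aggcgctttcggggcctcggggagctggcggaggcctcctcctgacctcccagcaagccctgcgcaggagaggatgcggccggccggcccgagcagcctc
KIF15, chr3:44761694-44761793, plus strand: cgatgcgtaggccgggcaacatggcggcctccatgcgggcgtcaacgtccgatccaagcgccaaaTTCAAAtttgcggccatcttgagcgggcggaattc
KIF20A and SPC24 have CCAAT matches but neither searched form of the CHR in their windows, and TACC3 has no match to either motif. In another annotation, GENCODE 29, the TACC3 gene starts downstream of its window, at chr4:1721490. The KIF20A gene there starts upstream of its window, at chr5:138178719. For both genes the absence of a match therefore holds only for the start used. Motif positions given above carry the same limit. In GENCODE 29 the PRC1 and HMMR genes start upstream of their windows, at chr15:90995629 and chr5:163460203. The KIF11 gene starts downstream of its window, at chr10:92593286. KIF15 has a CHR next to an E2F match, which reads GCGCCAAA and starts at -43. Log2 fold changes ran from -1.38 to -0.10 in the 34 genes with a CHR match and from -1.62 to -0.42 in the 12 without. The medians were -0.82 with a match and -0.89 without, and the difference was not tested.

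Motifs of other factors were less frequent. An E2F site, searched as TTTCCCGC, TTTCGCGC, TTTGCCGC or TTTGGCGC on both strands, was present for 5 of 46 genes (10.9%). The share was 5.40% of all protein-coding genes and 6.86% of those tested for expression. All 5 were called lower, with a median log2 fold change of -1.19. Of the 41 genes without a match, 20 were called lower, and the median of the 41 was -0.81. The difference rests on 5 genes and was not tested. The dioxin response element to which activated AhR binds, searched as CACGCNA or TNGCGTG on both strands, was found in the windows of 3 of 46 genes (6.52%, against 8.26%). These were KIF11, KIF18A and KIF23. None of the 3 was called with all 6 libraries, and all 3 were called without control replicate 3. Their median log2 fold change was -0.81, beside -0.82 for the 43 genes without a match. The windows are far shorter than the promoter stretches that the study searched for this element, so sites further upstream would be missed.

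Among the 12 mitotic kinesins, 7 fell (adjusted p at most 0.05) and 4 of these were DEGs. The median log2 fold change was -0.85, and their summed level went from 297.2, 307.3 and 230.2 TPM in the control libraries to 140.7, 127.9 and 140.8 TPM after rutaecarpine. KIF20A, the motor that carries the chromosomal passenger complex to the central spindle, had the largest fall. Its level was 33.5, 36.2 and 27.1 TPM in the controls and 10.6, 10.1 and 11.2 TPM after rutaecarpine, a log2 fold change of -1.51 ± 0.14 (SE, limma adjusted p 0.00145). Every treated library was thus far below the lowest control library.

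KIF18B and KIF15 followed. KIF18B, which shortens astral microtubules at their plus ends, measured 17.6, 18.0 and 13 TPM in the controls against 6.62, 4.68 and 5.55 TPM (-1.38 ± 0.19, limma adjusted p 0.00598). KIF15, a plus-end motor that can stand in for KIF11 in keeping the poles apart, measured 17.6, 15.3 and 11.1 TPM against 5.75, 4.16 and 5.14 TPM (-1.37 ± 0.21, limma adjusted p 0.00875). In both, the groups were well separated although control replicate 3 was the lowest control. The minus-end motor KIFC1, which clusters centrosomes, was at 40.5% of control.

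The other called kinesins were KIF2C, which depolymerises microtubules at centromeres, and the chromokinesins KIF4A and KIF22, with log2 fold changes between -0.85 and -0.82. KIF11, the motor that pushes the spindle poles apart, had a log2 fold change of -1.03 ± 0.28 and an adjusted p of 0.0704 in limma. Its control libraries stood at 22.6, 22.6 and 10.7 TPM and its treated libraries at 8.55, 7.67 and 8.24 TPM, so the spread was on the control side. KIF18A, KIF20B, KIF23 and KIF14 were not called either. KIF14, which acts with citron kinase in cytokinesis, had the smallest difference of the kinesins, at 7.04, 7.71 and 2.03 TPM against 3.93, 3.39 and 4.21 TPM (-0.30 ± 0.40, limma adjusted p 0.674). Its treated libraries all lay below controls 1 and 2 and all above control 3, and all 12 kinesins were called without control replicate 3.

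Among the 10 spindle proteins, 6 fell and 3 were DEGs, with a median log2 fold change of -0.87. NUSAP1, which bundles microtubules around the chromosomes, measured 67.8, 63.7 and 36.9 TPM in the controls and 26.1, 20.3 and 22.6 TPM after rutaecarpine (-1.21 ± 0.24, limma adjusted p 0.0221), and the call was lost on leaving out any 1 library other than control replicate 3 (adjusted p 0.0651 to 0.0966). TACC3, which stabilises kinetochore fibres, measured 64.9, 62.7 and 60.7 TPM against 26.4, 26.2 and 29.8 TPM (-1.16 ± 0.10, limma adjusted p 0.000923). TACC3 had the smallest adjusted p of the 50, and its control libraries were close together, control replicate 3 included.

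TPX2, which activates Aurora A on the spindle and helps to nucleate microtubules, went from 77.8, 80.3 and 63.6 TPM to 37.0, 33.4 and 37.8 TPM (-1.01 ± 0.12, limma adjusted p 0.00341). STMN1, or stathmin, which binds free tubulin and destabilises microtubules, was the most abundant of the 50 genes. It stood at 330, 338 and 382 TPM in the controls and at 182, 198 and 172 TPM after rutaecarpine, a log2 fold change of -0.92 ± 0.09 (limma adjusted p 0.00164). Here control replicate 3 was the highest control library. SPAG5 and DLGAP5, both proteins of the spindle and its kinetochore fibres, were also called.

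The 4 spindle proteins that were not called were HMMR, ASPM, CKAP2L and CKAP2. CKAP2, a microtubule-stabilising protein, had the smallest difference, at 23.5, 23.0 and 11.7 TPM against 12.6, 13.7 and 14.4 TPM (-0.42 ± 0.26, limma adjusted p 0.374). Control replicate 3 was below all treated libraries for it, and the other control libraries were well above. All 10 were called without that library.

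Of the 4 cytokinesis proteins, 3 fell, and all 4 were called without control replicate 3. ANLN, a scaffold of the contractile ring, measured 50.9, 52.2 and 28.1 TPM in the controls and 18.4, 18.7 and 18.1 TPM after rutaecarpine (-1.15 ± 0.23, limma adjusted p 0.0257), a call lost on leaving out any 1 library other than control replicate 3 (adjusted p 0.0836 to 0.105). PRC1, which cross-links the antiparallel microtubules of the central spindle, measured 70.5, 66.1 and 61.6 TPM against 38.0, 38.4 and 32.6 TPM (-0.85 ± 0.11, limma adjusted p 0.0044). Both were separated from control in every library, and RACGAP1, the GTPase-activating subunit of centralspindlin, was called at 55.6% of control. ECT2, the exchange factor that switches on RhoA at the cell equator, was not called. Its values were 38.0, 39.6 and 18.3 TPM against 22.5, 21.0 and 25.8 TPM (-0.38 ± 0.29, limma adjusted p 0.463), again with control replicate 3 below the treated libraries.

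Of the 8 inner centromere proteins, 5 fell and 2 were DEGs, with a median log2 fold change of -0.79, and 7 were called without control replicate 3. CENPM, part of the CENP-H/I/K/M subcomplex, measured 30.4, 26.1 and 38.1 TPM in the controls and 10.0, 13.4 and 12.5 TPM after rutaecarpine (-1.32 ± 0.18, limma adjusted p 0.00562). CENPU, which helps to bring polo-like kinase to the kinetochore, measured 36.3, 37.6 and 33.6 TPM against 14.2, 16.0 and 15.3 TPM (-1.19 ± 0.11, limma adjusted p 0.00134). In CENPM control replicate 3 was the highest control, so that its fold change was smaller without that library (-1.18).

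CENP-A itself, encoded by CENPA, was at 54.1% of control, and CENPH and CENPW, at 57.3% and 58.9%, were called as well. Of the partners of CENPM in its subcomplex, CENPH was called with all 6 libraries, while CENPI (-0.80 ± 0.37) and CENPK (-0.53 ± 0.21) were not. Without control replicate 3 both were called, at -1.22 for CENPI and -0.75 for CENPK, beside -1.18 for CENPM. Differences between these subunits were not tested. CENPN, which reads the CENP-A nucleosome, had the smallest difference of this group and stood apart from the rest in another way. Its values were 43.7, 43.0 and 38.4 TPM against 26.1, 37.7 and 26.6 TPM (-0.47 ± 0.16, limma adjusted p 0.124). The controls agreed closely, and rutaecarpine replicate 2 lay just below them, far from the other treated libraries. Without control replicate 3 its adjusted p was still 0.0593.

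Of the 9 outer kinetochore proteins, 6 fell and 2 were DEGs, with a median log2 fold change of -0.87, and all 9 were called without control replicate 3. SPC24, a subunit that anchors the Ndc80 complex to the kinetochore, had the largest fold change of all 50 genes with all 6 libraries. Control replicate 3 was its highest control, and without it SPC24 was at -1.52, behind KIF20A at -1.63 and KIF15 at -1.55. It measured 23.9, 22.5 and 28.5 TPM in the controls and 6.73, 7.56 and 8.02 TPM after rutaecarpine, 29.8% of control (-1.62 ± 0.14, limma adjusted p 0.00122). Its direct partner SPC25 measured 21.6, 14.7 and 17.9 TPM against 7.29, 4.49 and 7.92 TPM (-1.35 ± 0.23, limma adjusted p 0.0147), with adjusted p-values of 0.0576 without control replicate 1 and 0.0513 without rutaecarpine replicate 1. ZWINT, which binds KNL1 and links the kinetochore to the spindle checkpoint, measured 114, 116 and 90.0 TPM against 55.7, 49.9 and 54.0 TPM (-0.98 ± 0.12, limma adjusted p 0.00397). All 3 of these genes were separated from control in every library.

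The microtubule-binding subunits of the Ndc80 complex are NDC80 and NUF2. NDC80 was at 51.6% of control and was called (-0.89 ± 0.16), and NUF2 was at 55.0% and was not (-0.78 ± 0.21, limma adjusted p 0.065). The ratio of NDC80 to SPC24, in TPM, was 1.09, 1.19 and 0.67 in the controls and 1.69, 1.61 and 1.70 after rutaecarpine, without overlap. For NUF2 over SPC25 it was 1.33, 1.56 and 0.92 against 1.57, 2.67 and 1.78, with the lowest treated library just above the highest control. These ratios were chosen after the values were seen and were not tested.

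SKA3, a subunit of the complex that keeps kinetochores on shortening microtubules, was the least abundant of the 50 genes. It measured 5.38, 3.87 and 4.06 TPM against 2.58, 1.33 and 2.11 TPM (-0.87 ± 0.22), and with a limma adjusted p of 0.0583 it just missed the threshold although no treated library reached a control one. Its partner SKA1 was called, as was CENPF, a large protein of the outer corona. CENPE, the kinesin that moves chromosomes to the spindle equator, had the smallest difference of the outer kinetochore at 12.3, 12.0 and 5.06 TPM against 5.92, 4.68 and 6.54 TPM (-0.61 ± 0.32, limma adjusted p 0.307). Control replicate 3 lay among its treated libraries.

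Neither shugoshin was called with all 6 libraries. SGO1 measured 8.71, 8.27 and 6.31 TPM in the controls and 4.75, 4.29 and 4.66 TPM after rutaecarpine (-0.64 ± 0.17, limma adjusted p 0.0639). SGO2 measured 15.6, 16.2 and 7.66 TPM against 8.83, 7.27 and 9.37 TPM (-0.52 ± 0.28, limma adjusted p 0.317). The groups were apart for SGO1 and overlapped for SGO2 through control replicate 3 alone, and both were called without it.

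Of the 5 condensin subunits, 2 fell and none was a DEG, with a median log2 fold change of -0.58, and all 5 were called without control replicate 3. The called ones were NCAPG and NCAPH, non-SMC subunits found in condensin I only. NCAPG measured 22.0, 20.8 and 12.2 TPM in the controls and 8.54, 8.57 and 8.42 TPM after rutaecarpine (-0.98 ± 0.22, limma adjusted p 0.0395), and lost its call on leaving out any 1 library other than control replicate 3 (adjusted p 0.118 to 0.147). NCAPH measured 29.5, 29.4 and 24.2 TPM against 12.6, 13.2 and 14.9 TPM (-0.98 ± 0.13, limma adjusted p 0.00593). The groups were apart for both, while NCAPD2, the remaining condensin I subunit, was at 66.3% of control and just missed the threshold (limma adjusted p 0.0611).

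The ATPase subunits SMC2 and SMC4, which condensin I and II share, were not called. SMC2 had the smallest difference of all 50 genes, at 30.2, 27.9 and 11.5 TPM against 20.6, 17.1 and 22.3 TPM (-0.10 ± 0.34, limma adjusted p 0.876), and its sign turned when control 1, control 2 or rutaecarpine replicate 2 was left out. Without control replicate 3 it was called lower at -0.52. SMC4 was at 64.3% of control (-0.51 ± 0.35), and control replicate 3 was below all treated libraries for both genes. The ratio of SMC4 to SMC2, in TPM, was 2.62, 2.78 and 2.66 in the control libraries and 2.16, 2.16 and 1.75 in the rutaecarpine libraries, so this ratio in control replicate 3 matched the other controls. It was chosen after the values were seen and was not tested.

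**Figure D2:**
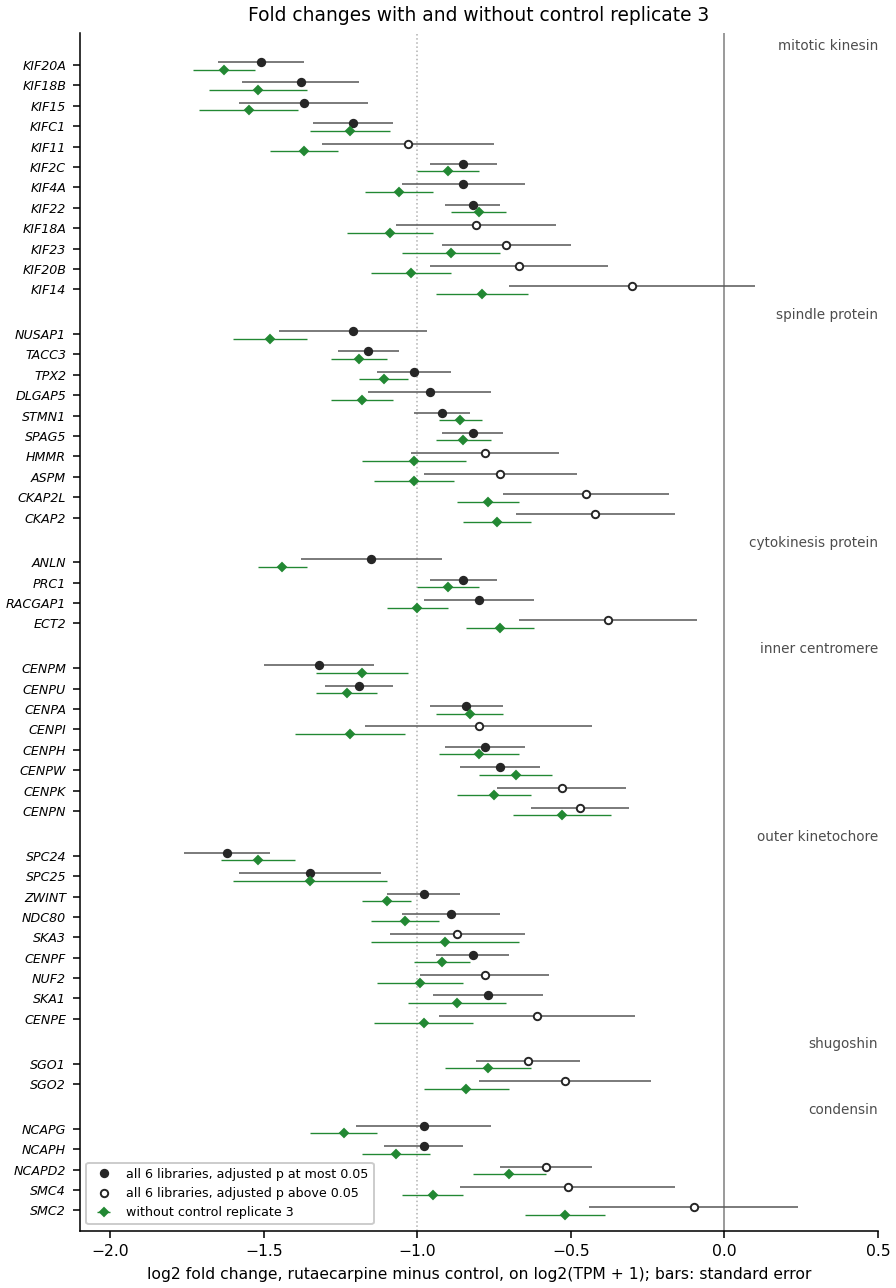
Log2 fold change (rutaecarpine minus control, on log2(TPM + 1)) with its standard error for each of the 50 genes, by role, with all 6 libraries (circles, filled where the adjusted p is 0.05 or lower) and without control replicate 3 (green diamonds). The circles run from -1.62 to -0.10 and the diamonds from -1.63 to -0.52, and open circles sit mostly where circle and diamond are far apart.

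The 29 called and the 21 other genes differed more in control replicate 3 than in the treated libraries. That library enters the call itself, so a difference of this kind is partly built into the calculation. Relative to the mean of controls 1 and 2, control replicate 3 stood at a median of 82.0% for the called genes (range 54.6% to 135%) and of 50.2% for the others (27.5% to 88.6%). The rutaecarpine mean on the same base was 45.6% for the called genes (30.4% to 60.9%) and 52.1% for the others (36.0% to 69.5%). All 50 genes were below controls 1 and 2 in all 3 treated libraries, where 26.5% of all tested genes were. The 11 genes whose groups overlapped with all 6 libraries were KIF14, KIF20B, CKAP2, CKAP2L, ECT2, CENPE, CENPI, CENPK, SGO2, SMC2 and SMC4.

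The level of these genes in control replicate 3 moved with base composition and length. Across the 50 genes, the log2 ratio of control replicate 3 to the other controls correlated with the GC content of the reference transcript (Pearson's r 0.64, Spearman's rho 0.70) and, inversely, with its length (rho -0.69). These points share the same 3 libraries, and genes are not independent replicates. Over 14187 tested genes the corresponding values were 0.42, 0.48 and -0.48. The median GC content was 46.4% for the called genes, 38.0% for the others and 37.6% for the 11 whose groups overlapped.

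When each library's trend on transcript length and GC content was removed before the fit, 47 of the 50 were called lower, where 10.9% of 14267 genes were. The exceptions were KIF14, SMC2 and CENPN. The median log2 fold change of the 50 was then -0.95. What made control replicate 3 differ was not tested.

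**Figure D3:**
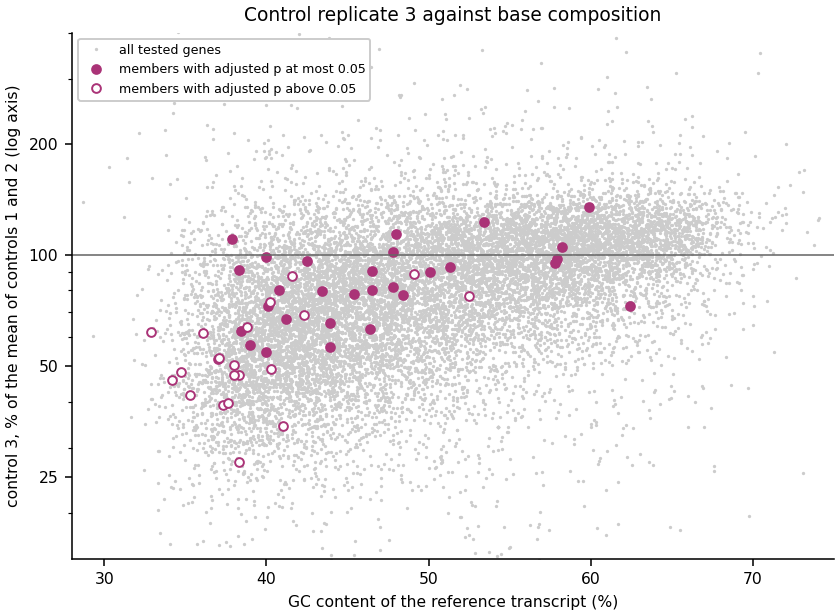
Level in control replicate 3 as a percentage of the mean of controls 1 and 2 (log axis) against the GC content of the reference transcript, for the 50 genes (large symbols, filled where the adjusted p is 0.05 or lower) and all tested genes (grey dots). The open symbols cluster at low GC content, with a median of 38.0%, and low on the vertical axis, with a median of 50.2%.

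Genes of the same structures outside the 50 gave a mixed picture. Of 23 tested kinesins and kinesin light chains that serve transport or interphase functions, none was called lower and KIF3C, a transport motor, was called higher (26.0 to 47.1 TPM on average, log2 fold change 0.83, limma adjusted p 0.0109). Their median log2 fold change was 0.22, beside -0.85 for the mitotic kinesins. Without control replicate 3 the median was 0.06 and 3 were called higher. Of 13 other inner centromere and CENP-A loading genes, 3 were called lower, with CENPP falling most (-1.11), and the median was -0.48. Of 12 other outer kinetochore genes, 3 were called lower and NDEL1 was called higher (0.45). Among the former was KNL1, the platform on which the Ndc80 complex and ZWINT assemble (10.3 to 3.58 TPM on average, -1.31, limma adjusted p 0.0191).

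The chromosomal passenger complex, which corrects faulty attachments at the inner centromere, had 3 of its 4 genes called lower, and all 4 without control replicate 3. AURKB, its kinase, fell most (50.8 to 19.4 TPM on average, -1.35, limma adjusted p 0.00054), and INCENP, its scaffold, was not called (-0.40, limma adjusted p 0.339). Of 23 other spindle and cytokinesis genes, 8 were called lower, led by PIMREG (-1.13), and 0 higher. All 9 tested alpha- and beta-tubulin genes were called lower, also without control replicate 3, with a median log2 fold change of -0.67, and TUBA1B, the most abundant, averaged 2173 TPM in control and 1071 TPM after rutaecarpine (-1.02). Some isotypes within the alpha and within the beta family are very similar in sequence, so the division of reads among those genes is uncertain.

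Complexes that also work outside mitosis held called genes too, where 4.68% of all tested genes were called lower, and differences between lists were not tested. Of 15 cohesin genes and regulators, 3 were called lower (CDCA5, PTTG1 and ESCO2) and the median was 0.00. CDCA5, the sororin that stabilises cohesin on replicated DNA, fell most (-1.13, limma adjusted p 0.0019). Of 19 augmin and gamma-tubulin ring complex genes, 2 were called lower, HAUS7 and HAUS8 (-0.62 and -0.69), with a median of -0.18. Of the 3 subunits particular to condensin II, NCAPH2 was called lower (-0.75), and 2 were without control replicate 3. Without control replicate 3 the numbers called lower, beside 10.3% of all tested genes, were 10 of the 13 inner centromere genes, 6 of the 12 outer kinetochore genes, 14 of the 23 spindle and cytokinesis genes, 5 of the 15 cohesin genes and 8 of the 19 augmin and ring complex genes, with 0 of the 23 transport kinesins.

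**Figure D4:**
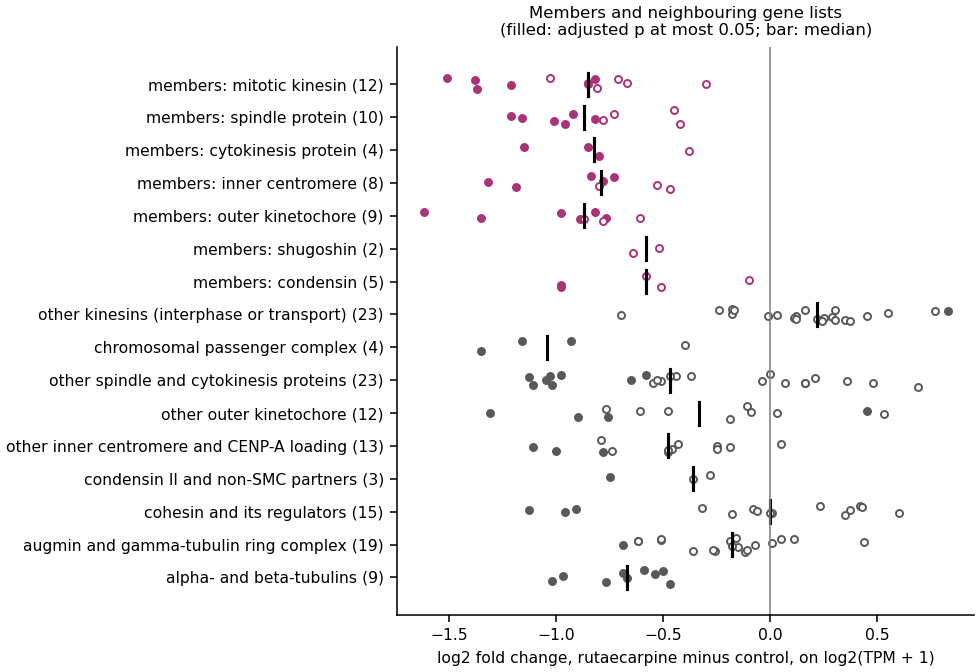
Log2 fold changes (rutaecarpine minus control, on log2(TPM + 1)) of the 50 genes by role (purple) and of 9 lists of related genes (grey), with the number tested in brackets, filled symbols for an adjusted p of 0.05 or lower, and a bar at each median. The medians of the 7 roles lie between -0.87 and -0.58, and that of the transport kinesins lies at 0.22.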

How the data were processed

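The 6 RNA-seq libraries of U87 cells were sequenced on an Illumina NovaSeq. The authors quantified genes with RSEM and deposited 1 table of TPM values, not counts, per gene and library; the genome build was GRCh38.p13 per the labels, and the aligner and annotation release are not given in the sources used here. The deposited TPM summed to 990889 to 995734 per library. The 14377 genes that reached a TPM of 1 in 3 or more libraries were fitted on log2(TPM + 1) with limma 3.58.1 in R 4.3.3 (mean-variance trend, two-sided), with Benjamini-Hochberg adjustment. A fold change on this scale understates that of low genes. The study's thresholds (adjusted p of at most 0.05, absolute log2 fold change above 1) were kept. The procedure was tested on simulated data, with noise set from the libraries other than control replicate 3. The simulation held no outlying library, so it does not cover the effect of control replicate 3 on the calls.

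Transcript length and GC content came from GENCODE 29. Values per library are given for the 2 or 3 largest and the smallest fold change of each role and the most and least abundant gene. In related lists, the called gene with the largest fold change in each direction is named, with KNL1 and INCENP. KIFC1, KIF11, NDC80, NUF2 and other genes outside this rule were named after their values were seen. Genes, lists and promoter windows shown were chosen with earlier results of these data known. Alternatives covered scaling, filters, pseudocount, trend, thresholds, library weights, replicate block, length and GC content, and leaving out each library. Figures were drawn with matplotlib 3.10.9 in Python 3.11.15.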

Additional observations from a re-analysis of the deposited data

How the results depend on the processing

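None of the 50 genes was called higher under any of the 15 settings tried (limma), and 49 had a negative log2 fold change under all of them. The exception, SMC2, was -0.52 without control replicate 3 and turned to 0.14 without control replicate 1, 0.08 without control replicate 2 and 0.00 without rutaecarpine replicate 2. The 29 genes called lower became 49 with library weights, which set control replicate 3 at 0.121, and 47 after the length and GC correction. They became 49 when that correction was combined with leaving out control replicate 3, a combination chosen after seeing the data, and 1 (TACC3) at an adjusted p of at most 0.001. The 12 DEGs became 21, 21, 22 and 1 in the same order.

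Leaving out 1 library at a time gave 18 to 49 called genes and 8 to 25 DEGs. The highest values came without control replicate 3. Without control replicate 1 there were 19 called genes and 8 DEGs, without rutaecarpine replicate 1 there were 18 called genes and without rutaecarpine replicate 3 there were 19. In all 6 such fits 18 genes were called and 8 were DEGs. The summed TPM stayed between 49.8% and 55.0% of control.

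Centring the libraries gave 40 called genes and 18 DEGs, and no filter on low TPM gave 22 and 10. The other settings, a pseudocount of 0.1, no trend and a minimum TPM of 1 in each library, gave 29 or 30 called genes and 12 to 15 DEGs. Same-numbered libraries did not deviate together (r of 0.116, -0.266 and -0.215), so replicate numbers were not taken as pairs. With the replicate block, 15 genes were called and 10 were DEGs. Among the called genes given by library, ANLN, NCAPG and NUSAP1 lost their calls with the block and with no filter on low TPM, and NCAPH with the block. Depth is unknown, so counting error could not be set beside the spread of low genes such as SKA3.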

Other observations

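Genes that drive the cell cycle around these structures were also lower after rutaecarpine. Of 12 mitotic kinases, cyclins and checkpoint genes, 9 were called lower and 0 higher in limma, with a median log2 fold change of -0.79, and 11 were called lower without control replicate 3. CDC20, which activates the anaphase-promoting complex, fell most, from 89.1 to 38.5 TPM on average (-1.19, adjusted p 0.000579), and TTK, the checkpoint kinase also called MPS1, had the smallest difference (-0.29, adjusted p 0.539). Of the 6 subunits of the MCM helicase, which unwinds DNA in S phase and not in mitosis, 5 were called lower, with a median of -1.01, and all 6 without control replicate 3.

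Among 17 regulators of cell cycle transcription, 6 were called lower and 1 higher, with a median of -0.01, and 7 and 2 without control replicate 3. MYBL2, which joins MuvB complexes at CHR elements, fell from 33.9 to 11.7 TPM on average (-1.46, limma adjusted p 0.000874), and FOXM1, which follows it there, from 59.1 to 34.3 TPM (-0.77, adjusted p 0.012). CDKN1A, the inhibitor p21, was the called gene that rose, from 116 to 152 TPM (0.38, adjusted p 0.028). The CCAAT-binding NF-Y genes NFYA, NFYB and NFYC were not called, with log2 fold changes of 0.32, 0.09 and 0.31. E2F7, a repressor of E2F targets, averaged 12.6 TPM in control and 34.4 TPM after rutaecarpine (1.49) and missed the threshold (adjusted p 0.0551), and it was called higher without control replicate 3 (adjusted p 0.00564).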
